A study of Mus musculus with 10 samples.

Results

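Taar8a, Taar8b, Taar8c and Taar9 are the last 4 genes of the mouse Taar cluster, at the end next to Stx7. They were taken by symbol from the table of raw counts, as 4 of its 24421 rows, and the 3 Taar8 genes were also summed, because their sequences are nearly the same. The other 10 olfactory Taar genes (Taar2 to Taar7f) were used for comparison.

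Trace amine-associated receptors (TAARs) are G protein-coupled receptors, most of which serve as olfactory receptors for amines. They form a family apart from the odorant receptors, and an olfactory sensory neuron (OSN) is known for expressing a single receptor gene from a single allele. In rat, receptors of both the Taar8 and the Taar9 kind have been found to respond to N-methylpiperidine, a cyclic amine.

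The tissue was the whole main olfactory epithelium (MOE), which lines the nose and holds the OSNs, at postnatal day 14. The strain in the labels is C57BL/6, and the study's reporting form gives both sexes and a mix of C57BL/6J and 129 for its mouse lines. The groups were wild type (WT, 3 libraries), +/- mice with 1 allele lacking TAAR enhancers 1 and 2 (het, 3 libraries), and -/- mice in which both alleles lacked both enhancers (homo, 4 libraries). The mice came from 1 line, made by CRISPR-Cas9 deletion of enhancer 1 in zygotes that already carried the enhancer 2 deletion, and were littermates. Enhancer 1 lies at the Taar1 end of the cluster and enhancer 2 between Taar6 and Taar7a, so the 4 genes lie beyond both. The comparisons asked whether these genes are still transcribed without the enhancers, and what level remains with 1 intact allele. The study counts its n as littermates, so the libraries were taken as separate animals of this line, and p-values measure the spread between them.

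Library totals ranged from 21423861 to 27712948 counts. Omp, the marker of mature OSNs, was at 3572 to 4861 CPM (counts scaled to the library total) in all 10 libraries, and all 8 mature OSN markers were above 0 in every library. The summed mature OSN markers were at 9280 to 10208 CPM in WT, 9073 to 10586 in het and 8654 to 10091 in homo libraries, and overlapped between the genotypes. So did the summed markers of immature OSNs, basal, ciliated, erythroid and bone cells. The 4 sustentacular (supporting cell) markers summed to 3038 to 3360 CPM in WT, 3480 to 3684 in het and 3187 to 3626 in homo libraries, so that WT and het did not overlap, and the part of this in the results was not tested. Summed counts of 4 Y-linked genes were 5252 to 6636 in 4 libraries, with at least 1 of each genotype, and at most 3 in the other 6, so both sexes were present in every group. In whole tissue, fewer cells that express a gene and less RNA per cell cannot be told apart.

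The 4 genes lie on chromosome 10 of mm10 (1-based, GENCODE M21), each as 1 annotated exon that holds coding sequence only and overlaps no other annotated gene. Taar8a (ENSMUSG00000096442.1) is at chr10:24076500-24077534 on the plus strand. Taar8b (ENSMUSG00000100186.1, chr10:24091260-24092294), Taar8c (ENSMUSG00000100004.1, chr10:24100878-24101912) and Taar9 (ENSMUSG00000037424.6, chr10:24108488-24109534) are on the minus strand. The stretch from the start of Taar8a to the end of Taar9 spans 33.0 kb. It is set off from Taar7f by a gap of 25.9 kb and from Stx7 by 39.8 kb. Within it, 6.58 kb separate Taar8c from Taar9, the smallest gap of the stretch.

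The Taar8 coding sequences are 1035 bases long, and 96.1% of the positions are the same in all 3 copies. At the 40 positions that differ, Taar8b has a base of its own at 20, Taar8a at 14 and Taar8c at 5, and all 3 differ at 1. Pairwise identity is 98.1% for Taar8a and Taar8c, 97.5% for Taar8b and Taar8c and 96.6% for Taar8a and Taar8b. The 90 bases with the most differences, positions 934 to 1023 from the start codon, show the letters by which a read can be placed. They are read 5′ to 3′ on the coding strand from the GENCODE M21 transcripts, and capitals mark the 13 positions at which the copies differ. They lie at chr10:24077433-24077522 in Taar8a, chr10:24091272-24091361 in Taar8b and chr10:24100890-24100979 in Taar8c.
Taar8a: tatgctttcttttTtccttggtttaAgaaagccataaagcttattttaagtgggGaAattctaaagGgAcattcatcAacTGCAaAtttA
Taar8b: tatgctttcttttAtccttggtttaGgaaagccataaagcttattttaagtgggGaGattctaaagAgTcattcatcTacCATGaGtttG
Taar8c: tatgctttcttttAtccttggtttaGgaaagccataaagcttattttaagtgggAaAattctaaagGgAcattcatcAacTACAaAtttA
Here most capitals of Taar8b differ from those of both other copies, while Taar8a and Taar8c share most of theirs.

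By contrast, the longest stretch without a difference runs over 126 bases, from position 708 to 833, and a read inside it fits all 3 copies alike. It is shown once, from Taar8a, where it lies at chr10:24077207-24077332.
Taar8 shared: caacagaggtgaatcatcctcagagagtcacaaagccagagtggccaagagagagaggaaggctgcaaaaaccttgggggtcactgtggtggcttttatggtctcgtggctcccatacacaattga
Of all windows of 100 bases, 77.1% in Taar8b, 64.3% in Taar8a and 47.4% in Taar8c occur in no other Taar gene. Taar9 is 67.6% to 68.9% identical to the Taar8 genes, and 100% of its windows occur nowhere else in the family. How the counting treated reads with several alignments is not given in the sources used here, so the counts of single Taar8 genes are uncertain, and the Taar8 sum and Taar9 are less open to this.

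**Figure D1:**
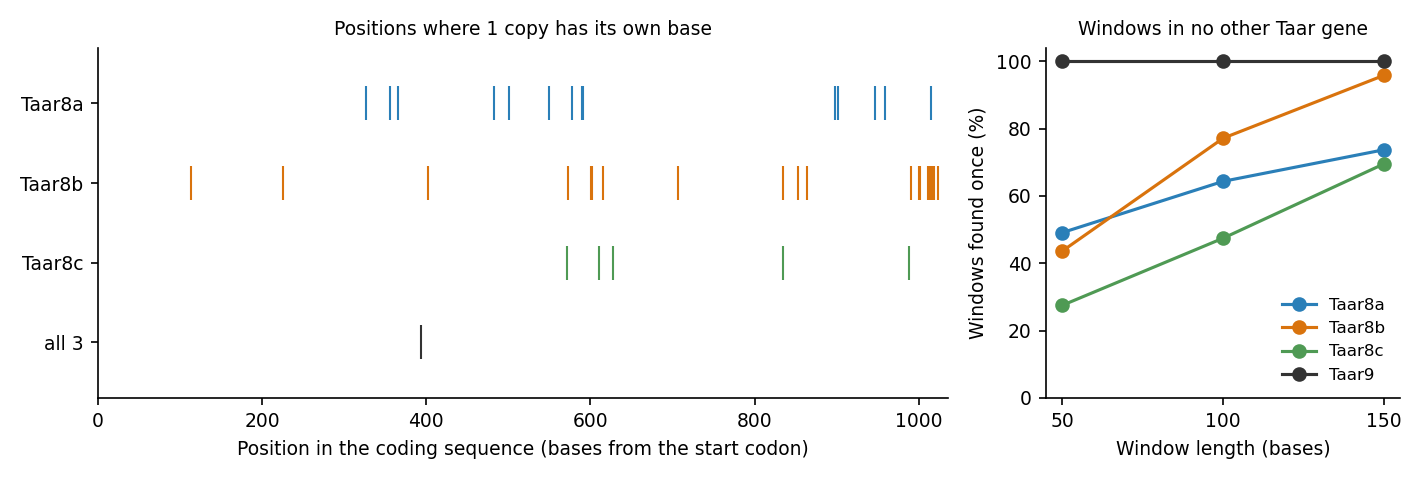
Left, positions from the start codon (bases) at which a Taar8 copy has a base of its own, 1 tick per position. Right, the share of windows (percent) that occur in no other Taar gene, by window length in bases. Taar8b has the most ticks (20), Taar8c the fewest of the 3 (5), and Taar9 stays at 100%.

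Reads of all 4 genes were found in every WT and het library and in no homo library. Taar9 had 77, 66 and 46 counts in WT libraries, 60, 80 and 67 in het libraries and 0 in each of the 4 homo libraries. For Taar8b there were 23, 26 and 36 counts in WT libraries and 33, 22 and 25 in het libraries. Taar8c stood at 10, 3 and 11 counts in the WT libraries and at 1, 8 and 8 in the het libraries. The WT and het ranges overlapped for each of these genes, and every homo library lay below both.

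Taar8a was the lowest, with 2, 2 and 6 counts in WT and 9, 2 and 5 in het libraries. Summed over the 3 copies, the Taar8 genes reached 35, 31 and 53 counts in the WT libraries and 43, 32 and 38 in the het libraries. All 3 Taar8 rows stood at 0 in all 4 homo libraries, which together held 95369023 counts. A count of 0 allows up to 3 counts, which is 0.108 to 0.140 CPM in single homo libraries. The counts of Taar8a in WT-1, WT-2 and het-2 and of Taar8c in het-1 were themselves under this floor, so a 0 in a single homo library is weak evidence for these genes. Intervals and floors cover counting error only.

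**Figure D2:**
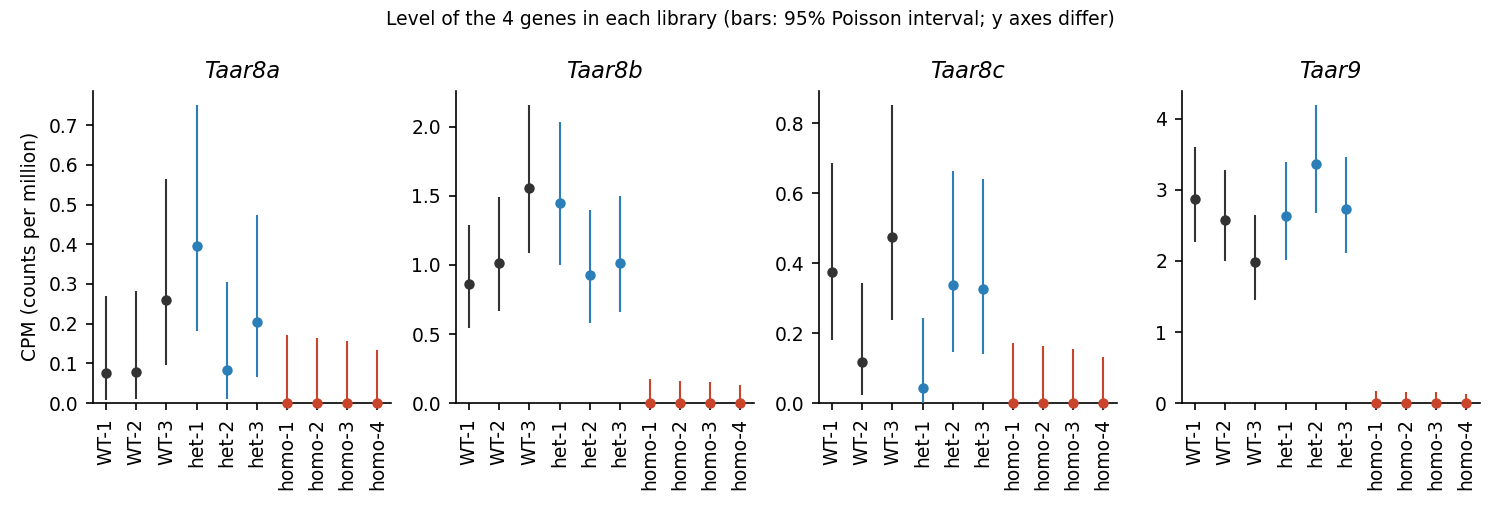
CPM of each gene in each library, with the 95% exact Poisson interval of the count as the bar and a y axis of its own per gene. All WT (black) and het (blue) points lie above 0, and all homo (red) points lie at 0.

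In CPM, Taar9 was at 2.48 ± 0.452 (SD, n = 3) in WT and 2.91 ± 0.399 (SD, n = 3) in het libraries. Against the floor of 3 counts per library, Taar9 was at least 19.5-fold lower in homo than in WT libraries and at least 22.9-fold lower than in het libraries. The Taar8 sum was at 1.604 ± 0.597 (SD, n = 3) in WT and 1.59 ± 0.273 (SD, n = 3) in het libraries. It was at least 12.6-fold lower in homo than in WT and at least 12.5-fold lower than in het libraries. Taar8b, with 1.14 ± 0.366 CPM (SD, n = 3) in WT and 1.13 ± 0.279 (SD, n = 3) in het libraries, was at least 9.01-fold and 8.90-fold lower. These bounds set the mean of WT or het libraries against the mean floor of homo libraries. They leave out the spread between libraries, so they do not hold for each single library. They are set by depth, and a larger one marks a gene with more counts in WT, not a deeper loss.

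In the model of all genes (edgeR, quasi-likelihood F test), homo mice had less Taar9 and Taar8b than WT mice, at adjusted p of 3.98e-06 and 0.00046. The Taar8 sum gave an adjusted p of 0.000115. Of the 17197 genes tested, 0.0698% (12) were called lower in homo mice. All 10 other olfactory Taar genes were among them, with adjusted p from 1.68e-08 to 0.00046. Only 2 of the 4 genes passed the filter on low counts, through their WT and het libraries, and Taar8a and Taar8c did not. In a fit without the filter, Taar8c had an adjusted p of 0.401 and Taar8a of 1.00 (edgeR), at unadjusted p of 0.00032 and 0.00559.

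Against het mice the result had the same form. Adjusted p (edgeR) was 2.31e-06 for Taar9, 0.000535 for Taar8b and 0.000119 for the Taar8 sum, and 0.0698% of the genes tested were called lower in homo than in het mice. The other 10 Taar genes were all called here too. Both comparisons use the same homo libraries.

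Since Taar8a and Taar8c fell to the filter and did not pass without it, the 6 libraries with an intact allele (WT and het) were set against the 4 homo libraries for each gene by itself. All 6 lay above all 4 for Taar8a, Taar8b, Taar8c and Taar9, and 0.319% of the 21284 genes with a count in any library (68) showed this order. Over the 6 libraries the mean was 0.182 ± 0.129 CPM (SD) for Taar8a, 1.14 ± 0.291 for Taar8b, 0.279 ± 0.164 for Taar8c and 2.69 ± 0.447 for Taar9. An exact permutation test (two-sided) returned p = 0.00952 for each gene and for the Taar8 sum, the smallest that 6 against 4 libraries allow. It was the same after adjustment over these 5 tests, which overlap because the sum contains the Taar8 genes. This p follows from the order of the libraries alone, so it adds nothing to the counts. It does not replace the model, in which Taar8a and Taar8c were not called.

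With 1 intact allele, Taar9, Taar8b and the Taar8 sum did not pass the test against WT. Taar9 in het mice was at 117% of WT (95% interval 76.8% to 178%), a log2 fold change of 0.22 (SE 0.28, edgeR adjusted p 1.00). The Taar8 sum was at 99.7% of WT (57.5% to 173%), a log2 fold change of -0.0040 (SE 0.37, adjusted p 1.00). Taar8b was at 99.2% of WT (54.6% to 180%, adjusted p 1.00). None of the 17197 genes tested was called between het and WT mice (0%), and DESeq2 and limma called 0 as well. In edgeR, 330 genes had an unadjusted p under 0.05. This is less than the share of 0.05 that unchanged genes would give, so the test may be conservative here, and the reason was not tested. These intervals come from a fit on genotype alone, and changes within them were not detectable with these counts and numbers of libraries.

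The level that 1 of 2 equal alleles would give alone is lower than WT by 1 on the log2 scale. Tested against that level, Taar9 in het mice was higher by 1.22 (edgeR, p adjusted over the 2 tests 0.00152). The Taar8 sum was higher by 1.00 (edgeR, p adjusted over the 2 tests 0.0182). The call for Taar9 held without each library in turn. That for the Taar8 sum was lost without WT-1, WT-2 or het-1, where the sum was higher by 0.87, 0.83 and 0.85 on the log2 scale and the p of the same edgeR test reached 0.0656, 0.0706 and 0.0721.

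Taar8a and Taar8c were too low for the filter of the model. Taar8a was at 0.137 ± 0.106 CPM (SD, n = 3) in WT and 0.227 ± 0.157 (SD, n = 3) in het libraries. Taar8c was at 0.322 ± 0.185 (SD, n = 3) in WT and 0.235 ± 0.166 (SD, n = 3) in het libraries. For both genes the difference of the means was smaller than the SD within either group. In the fit without the filter, het against WT gave a log2 fold change of 0.73 for Taar8a and -0.43 for Taar8c, both with an edgeR adjusted p of 1.00.

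**Figure D3:**
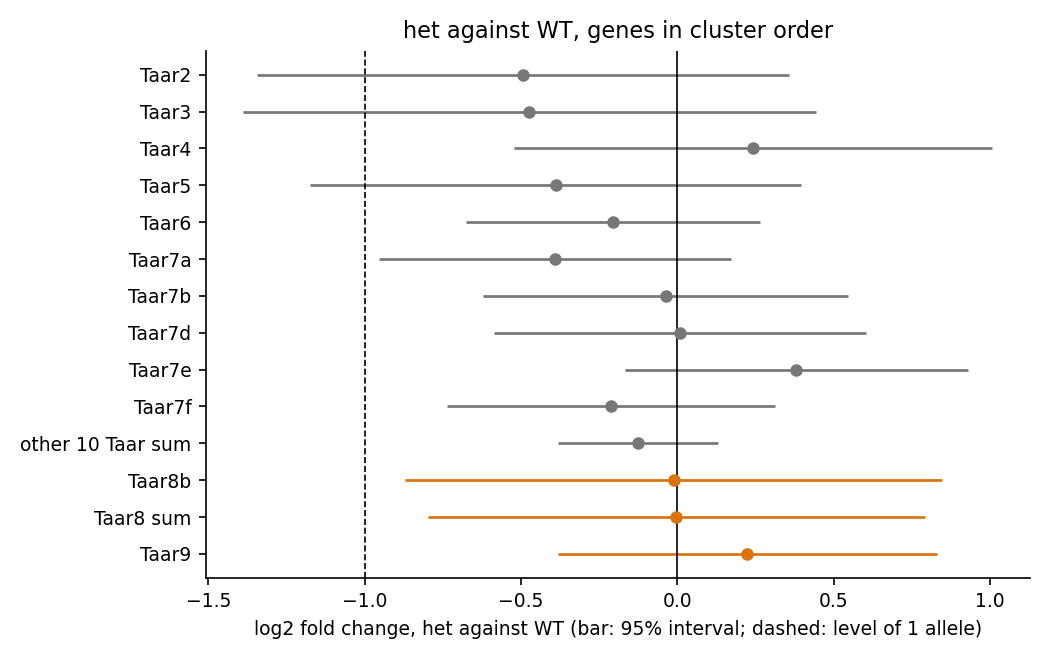
log2 fold change of het against WT mice with its 95% interval from edgeR, for the genes tested, in cluster order. Orange marks Taar8b, the Taar8 sum and Taar9, grey the other Taar genes, the solid line no change and the dashed line the level of 1 allele. All 3 orange intervals include no change and lie above the dashed line. The grey intervals include no change too, and among them only those of Taar2, Taar3 and Taar5 reach below the dashed line.

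Among the other 10 Taar genes, 7 were lower and 3 higher in het than in WT mice, from -0.49 to 0.38 on the log2 scale, and 0 of 10 passed the test. Their sum was at 91.6% of WT (76.7% to 109%). The 4 genes made up 12.2%, 10.8% and 11.6% of the olfactory Taar counts in the WT libraries. In the het libraries they made up 13.96%, 13.0% and 13.8%. The groups did not overlap, and the mean share was 2.04 percentage points higher in het libraries. By an exact permutation test (two-sided) p was 0.1, the smallest that 3 against 3 libraries allow, and 0.3 when adjusted over the 3 shares tested. Paired by replicate number, the share was higher in the het library by 1.72, 2.23 and 2.19 percentage points, in 3 of 3 pairs. The exact paired permutation test, added after the data were seen, gave p = 0.25, the smallest it allows with 3 pairs, so that neither permutation test could pass 0.05.

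The sum of the 4 genes had a smaller SD between libraries, relative to its mean, than Taar9 or the Taar8 sum in both WT and het mice. A sum of more counts has a smaller relative counting error, and a link between the levels of Taar9 and the Taar8 genes was not tested. The 4 genes summed to 112, 97 and 99 counts in WT and 103, 112 and 105 in het libraries, or 4.09 ± 0.258 CPM (SD, n = 3) and 4.50 ± 0.221 CPM (SD, n = 3). WT-3 had the lowest Taar9 count (46) and the highest Taar8 sum (53). Taar9 made up 46.5% of the 4 genes there (95% exact binomial interval 36.4% to 56.8%). It made up 68.8% (59.3% to 77.2%) in WT-1 and 68.0% (57.8% to 77.1%) in WT-2, so that WT-3 lay apart from both by more than counting error. In het libraries the share was 58.3%, 71.4% and 63.8%. The mean share was 61.1% ± 12.7 (SD, n = 3) in WT and 64.5% ± 6.61 (SD, n = 3) in het libraries, which did not pass the exact permutation test (p = 0.8).

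Within the Taar8 genes, Taar8b gave most of the counts in all 6 libraries with an intact allele. Its share of the Taar8 sum was 65.7%, 83.9% and 67.9% in WT and 76.7%, 68.8% and 65.8% in het libraries. The means, 72.5% ± 9.91 (SD, n = 3) and 70.4% ± 5.67 (SD, n = 3), did not pass the exact permutation test (p = 0.9). Pooled over the WT libraries, Taar8c gave 20.2% (exact binomial interval 13.4% to 28.5%) and Taar8a 8.40% (4.10% to 14.9%) of the 119 Taar8 counts. In the het libraries Taar8c gave 15.0% (9.01% to 23.0%) and Taar8a 14.2% (8.32% to 21.97%) of 113 counts. Taar8c was above Taar8a in 5 of these 6 libraries, het-1 being the exception with 1 count against 9.

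Levels of different genes were compared per kb of coding length. In WT libraries Taar9 was at 2.37 CPM per kb and stood 8th of the 14 olfactory Taar genes, Taar8b at 1.11 stood 11th, Taar8c at 0.311 stood 13th and Taar8a at 0.133 stood 14th. In het libraries the order was 6th, 11th, 13th and 14th. Taar9 overlapped in range with its neighbours in the order, Taar7b above and Taar5 below in WT libraries. Taar8b overlapped with Taar3 just below it, and lay apart from Taar4, the next above in WT libraries. Taar3 and Taar8c did not overlap in either genotype, while Taar8c and Taar8a did. In each of the 6 libraries Taar9 was above Taar8b and Taar8b above Taar8a and Taar8c.

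Taar8b was 3.55 times as high as Taar8c in WT and 4.80 times in het libraries, by the mean per kb. A copy with fewer letters of its own can lose more reads, so the levels were also taken per 1000 windows of 100 bases found in no other Taar gene, a scale chosen after the data were seen. On it Taar8b was at 1.58 ± 0.506 (SD, n = 3), Taar8c at 0.726 ± 0.416 and Taar8a at 0.228 ± 0.175 CPM in WT libraries. In het libraries these were 1.56 ± 0.386 (SD, n = 3), 0.530 ± 0.373 and 0.378 ± 0.260 CPM. The order by mean was the same, with a smaller distance between Taar8b and Taar8c.

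**Figure D4:**
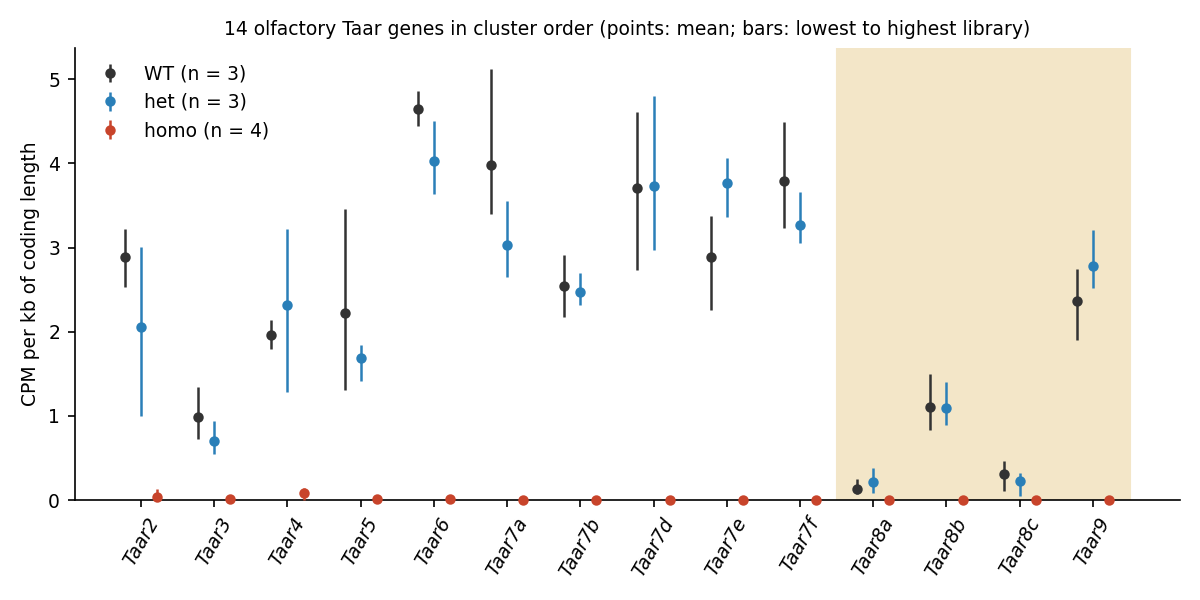
CPM per kb of coding length of the 14 olfactory Taar genes in cluster order, as the mean (point) and the lowest to highest library (bar) for WT, het and homo mice. The shaded 4 genes at the right hold the 2 lowest of the 14 genes in WT and het mice, Taar8a and Taar8c. They also hold Taar9, in the middle of the order, and all homo points lie at or near 0.

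Across the cluster, the 4 genes shared the 0 counts in homo libraries with the 5 Taar7 genes. The other 10 Taar genes summed to 2, 5, 3 and 5 counts in the homo libraries. Over these libraries, 9 counts fell on Taar4, 3 on Taar2 and 1 each on Taar3, Taar5 and Taar6. A total of 1 count lies under the floor of 3 counts, so Taar3, Taar5 and Taar6 cannot be told from the genes at 0. On the far side, Stx7, which encodes a syntaxin of endosomes and is the flanking gene on the Taar9 side, was at 132 to 156 CPM in WT, 135 to 151 in het and 123 to 144 in homo libraries. Its log2 fold change between homo and WT mice was -0.11 (SE 0.087, edgeR adjusted p 1.00). Moxd1, beyond Stx7, gave -0.034 (SE 0.11, adjusted p 1.00). Slc18b1, at the opposite end of the cluster, gave -0.10 (SE 0.098, adjusted p 1.00).

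Likeness of pattern was measured as the root mean square difference of levels relative to the WT mean over the 10 libraries, among 16018 genes with a mean WT count of at least 20. Nearest to Taar9 were Taar7d (0.128), Taar7b (0.142), Taar7e (0.175), Taar6 (0.202) and Taar4 (0.206). Nearest to the Taar8 sum were Taar7f (0.126), Taar5 (0.154), Taar7b (0.206), Taar6 (0.209) and Taar3 (0.227). The first gene outside the family was Clrn2 in both orders, at 0.351 from Taar9 and 0.381 from the Taar8 sum, and its mean level in homo libraries was 44.6% of WT. The median gene was 0.656 from Taar9 and 0.666 from the Taar8 sum. These values share the 10 libraries and the scaling to the WT mean, and carry no test.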

How the data were processed

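RNA of whole MOE tissue was made into directional libraries after poly(A) selection, and the submitters' processing notes name Trimmomatic 0.36, HISAT2 2.1.0, featureCounts of Subread 1.6.2 and DESeq2 1.20.0, with mm10 as the build. The deposited raw counts per gene were used as they are, and the deposited normalized signal, in which the authors divided each count by a constant per library, served as an alternative. The annotation used, the setting for strand and how reads with several alignments were handled are not given in the sources used here.

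Groups and replicate numbers came from the sample titles. The model was fitted with edgeR 4.0.16 in R 4.3.3 (filterByExpr on genotype, minimum count 10 and total 15, TMM, robust quasi-likelihood fit of all 10 libraries on genotype, two-sided F tests), and p was adjusted by Benjamini-Hochberg over all 17197 genes, with 0.05 as the threshold. The Taar8 sum replaced its 3 rows in a second fit. The scripts were tested on simulated data. CPM is the count over the library total, and exact permutation tests (scipy) doubled the smaller tail. A floor of 3 counts and 95% intervals were used. Alternatives were DESeq2 1.42.0, limma 3.58.1 on log2 of the deposited normalized signal plus 1, other scalings and filters, a sex term, a replicate block (for shares, an exact paired permutation) and leaving out each library. Library pairs of a genotype differed by more than sampling noise.

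The members, the lists and the tests were chosen with earlier results of these data known. Named were the 4 genes, the other 10 olfactory Taar genes, the flanking Slc18b1, Stx7 and Moxd1, and the 5 genes nearest in pattern with the nearest outside the family. Deviations from the group mean correlated between same-numbered WT and het libraries (0.326, 0.285 and 0.235). Between WT and homo libraries the correlation ran from -0.099 to -0.012. Between het and homo libraries it was -0.148, 0.159 and 0.068. The sample titles give replicate numbers and name no pairs. Same-numbered WT and het libraries also matched in Y-linked counts, with 5252 in WT-1, 6236 in het-1 and at most 2 in the others. Among homo libraries these counts were high in homo-2 and homo-3. The source of the correlation was not tested.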

Additional observations from a re-analysis of the deposited data

How the results depend on the processing

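Over 19 results and 274 values under alternatives, 257 had the same sign and, where they had a p, stayed on the same side of the threshold. Part of this was fixed in advance. No homo library had a count of these genes, so the permutation tests of intact against homo libraries could change neither sign nor side. The shares could change in sign only. Their permutation tests allow no p under 0.2 with a library left out or under 0.25 when paired. Pooled shares had no p. The model comparisons with homo mice kept sign and side of the threshold under every alternative that could be run. The mean CPM filter of 1 left no value for Taar8b or the Taar8 sum. The sign of the het against WT difference was not settled for Taar8b and the Taar8 sum. Limma on the normalized table gave log2 values of 0.00012 for Taar8b and 0.035 for the Taar8 sum. The replicate block gave 0.026 for the Taar8 sum, and a block in WT and het libraries alone, chosen after the data were seen, gave 0.023. The block changed no call of these genes. It moved the count of all genes called from 12 to 19 in homo against WT mice and from 13 to 24 in homo against het mice, and the cause was not tested.

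Leaving out each library gave -0.23 to 0.26 for Taar8b and -0.17 to 0.33 for the Taar8 sum, het against WT. Against the level of 1 allele it gave 0.83 to 1.33 for the Taar8 sum. The difference in share between het and WT ran from -3.90 to 7.24 percentage points for Taar9 among the 4 genes and from -5.47 to 3.61 for Taar8b among the Taar8 genes. Few counts limit Taar8a and Taar8c most.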
